A study of Mus musculus with 4 samples.

Results

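The lipid-associated macrophage (LAM) genes Trem2, Cd9, Gpnmb, Spp1, Fabp5, Lgals3, Cd63, Apoe, Itgax and Lipa were followed in adipose tissue (AT) of WT and EC-Tert-KO mice. These 10 genes of the 32290 features counted were chosen by name. They were read in macrophages, defined as cells with at least 3 UMIs of C1qa, C1qb and C1qc together, and in the other cell classes. The data were single cell RNA sequencing of 4 libraries, 1 each from subcutaneous (SC) and intraperitoneal visceral (IP) AT of each genotype. WT mice were Tie2e-cre; TERT+/+; mTmG and KO mice were Tie2e-cre; TERTfl/fl; mTmG, so both carried the Tie2e-driven Cre recombinase, meant for endothelial cells (EC), and the mTmG reporter, which turns from membrane Tomato to membrane GFP where Cre has acted. All were males aged 7 months that had been on high-fat diet (HFD) for 5 months. How many mice went into a library is not stated, and with 1 library per group there was no replicate error, so no test was made.

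LAM are macrophages of obese AT that gather around dying adipocytes, take up their lipid and break it down in lysosomes. The receptor TREM2 senses lipids at the cell surface and signals through the adaptor TYROBP, and it is known to be needed for the full LAM program. That program joins surface proteins, secreted proteins such as apolipoprotein E and osteopontin, and proteins that carry or hydrolyse lipids inside the cell.

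The members lie on separate loci of GRCm38, all annotated as protein coding. Trem2 spans chr17:48346401-48354147 on the plus strand, Apoe chr7:19696109-19699188 on the minus strand and Itgax chr7:128129547-128150657 on the plus strand. The 250 bases before the RefSeq start of these 3 genes are printed for the receptor of the program, the member with the most UMIs in IP macrophages and the compared member with 0 UMIs in KO IP macrophages. Capitals mark matches to motifs searched on both strands, so that TTCCTC and TGACCT are GAGGAA and AGGTCA on the other strand: GAGGAA, the core bound by the myeloid factor PU.1, TGANTCA, an AP-1 element, AGGTCA, a nuclear receptor half-site, CACGTG, an E-box, and TATAAA. The Trem2 window is chr17:48346151-48346400 on the plus strand, the Apoe window chr7:19699189-19699438 on the minus strand and the Itgax window chr7:128129300-128129549 on the plus strand (GRCm38.p6, RefSeq).
Trem2: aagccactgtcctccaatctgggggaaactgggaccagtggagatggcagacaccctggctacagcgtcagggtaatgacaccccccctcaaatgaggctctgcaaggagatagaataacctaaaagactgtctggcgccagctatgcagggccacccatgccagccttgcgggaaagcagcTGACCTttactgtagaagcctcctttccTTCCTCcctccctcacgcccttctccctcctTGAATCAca
Apoe: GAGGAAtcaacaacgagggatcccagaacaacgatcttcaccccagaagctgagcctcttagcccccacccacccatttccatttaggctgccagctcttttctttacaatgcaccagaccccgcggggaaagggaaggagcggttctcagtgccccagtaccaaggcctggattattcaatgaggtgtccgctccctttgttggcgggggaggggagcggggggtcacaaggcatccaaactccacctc
Itgax: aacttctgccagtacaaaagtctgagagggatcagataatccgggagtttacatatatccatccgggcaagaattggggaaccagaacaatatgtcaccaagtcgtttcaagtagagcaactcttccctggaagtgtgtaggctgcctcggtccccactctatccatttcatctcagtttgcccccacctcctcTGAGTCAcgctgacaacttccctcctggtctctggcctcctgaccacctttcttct
The letters matching TGANTCA were TGAATCA, 9 to 3 bases before the start of Trem2, and TGAGTCA, 56 to 50 bases before that of Itgax. Of the 10 members, 9 had an entry in the RefSeq promoter table, and Fabp5 had none. TGANTCA was found in 2 of these 9 windows and in 6.75% of all 32851 windows. GAGGAA was found in 5 of the 9 (Trem2, Spp1, Cd63, Apoe and Lipa) and in 23.3% of all windows. AGGTCA occurred in Trem2 alone among the 9 and in 14.0% of all windows, TATAAA in Spp1 and Lipa and in 12.4%, and CACGTG in 0 of the 9 and in 6.02%. A match describes letters only, and binding was not measured.

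The 4 libraries held 49915547 UMIs in 4927 barcodes, of which 4113 cells were kept, with a median of 6706 to 13047 UMIs per cell. Tert, the targeted gene, had 3 (WT) and 2 (KO) UMIs in SC, 8 (WT) and 9 (KO) in IP, and 0 in the macrophages, so its loss could not be seen at this depth. The reads come from the 3′ end and the deleted exon is not stated in the sources used here. Of the barcodes, 93 were shared by KO SC and WT IP, against 0 or 1 in every other pair of libraries. In KO SC these held a median of 601 UMIs against 35392 in WT IP. For all 93, the correlation with the same barcode was above the median correlation with a set of other shared barcodes. The medians of these values were 0.49 and 0.39. Of the macrophages, 2 of the 3 in KO SC and 7 of the 53 in WT IP carried such a barcode. The member ratios and the splits of WT IP macrophages are given with and without them. The barcodes shared with KO SC held at least 27629 UMIs each in WT IP. Leaving them out therefore took deep macrophages from WT IP only and not from KO IP.

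Macrophages were largely an IP population. The gate held 53 of 672 cells in WT IP (7.89%, exact 95% interval 5.96 to 10.2) and 10 of 518 in KO IP (1.93%, 0.930 to 3.52). It held 3 of 1955 cells in KO SC (0.153%) and 0 of 968 in WT SC, which allows a share of up to 0.310% at 3 counts and 0.380% by the exact interval. The log2 ratio of the IP shares, KO against WT, was -2.03 (-2.99 to -1.07), and it was -1.05 (-1.501 to -0.59) when all cells of the macrophage-like cluster were counted. Intervals here and below cover counting error only, and cells of 1 library are not replicates. All 66 gated cells fell in the macrophage-like cluster. The macrophage label was checked against markers that the gate did not use, and all 10 genes of the macrophage identity list were detected in both IP libraries. Csf1r, the receptor for the growth factor CSF1, had a UMI in 48 of 53 WT IP and 9 of 10 KO IP cells, and Adgre1, which encodes F4/80, in 42 and 8. Other genes of the list were found in fewer cells, Fcgr1 in 28 and 5, Ms4a7 in 16 and 3 and Mertk in 7 and 5. The 6 T cell markers together had 1 UMI (WT IP) and 0 UMIs (KO IP), and the 7 markers of adipose stromal cells (ASC) had 48 UMIs (50.6 CPM) and 11 (74.3 CPM). Markers of some other classes were present. The 6 monocyte markers, 1 of which is also on the identity list, stood at 1014 CPM (WT) and 1196 CPM (KO), in 50 of 53 and 6 of 10 cells. The 5 plasma cell markers stood at 89.6 and 243 CPM, in 34 and 7 cells, and the 5 red cell genes at 15132 and 155 CPM, with 35.8% of the UMIs of 1 WT cell. The part of these RNAs in the members' levels was not tested. CPM are UMIs scaled to a common total for each class and library, without scaling for gene length, since 3′ reads were counted.

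The GFP reporter was read in these cells as well. It had a UMI in 33 of 53 WT IP macrophages (62.3%, 47.9 to 75.2) and in 4 of 10 KO IP macrophages (40%, 12.2 to 73.8). B cell-like cells of the same libraries had it in 18.2% and 12% of cells, and T cell-like cells in 61.4% and 44.2%. In WT IP, macrophages with a GFP UMI had 148 CPM of Fabp5 (119 to 182) against 27.5 (12.6 to 52.3) in those without, and 264 CPM of Cd63 (225 to 307) against 91.8 (61.9 to 131). Trem2 stood at 188 against 110 CPM and Lgals3 at 2037 against 2356 CPM. These sums leaned on few cells. For Fabp5, 2 cells held 59.8% of the UMIs with GFP and 66.7% without, and for Cd63 43.9% and 80%. Without the shared barcodes, which left 28 and 18 cells, Cd63 stood at 219 (177 to 267) against 110 CPM (72.8 to 158), with 47.9% and 85.7% of its UMIs in 2 cells. The intervals then overlapped for Fabp5, at 56.9 (36.8 to 84.0) against 15.7 CPM (4.27 to 40.1), for Trem2, at 150 against 137 CPM, and for Lgals3, at 2092 against 2227 CPM. Median depth was 18104 and 16315.5 UMIs in these 33 and 20 cells. Whether recombination in the macrophages plays a part in the levels below was not tested.

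In WT IP macrophages the program was uneven. Lgals3, Lipa and Apoe were found in most cells, the surface genes in fewer than 1 cell in 2, and Gpnmb in almost none. Lgals3, which encodes galectin-3, had a UMI in 51 of 53 cells, with 0 UMIs in the lowest, 31 in the median and 136 in the highest cell. Lipa, the lysosomal acid lipase that frees cholesterol and fatty acids, was found in 39 cells, with a median of 2 and a highest count of 27. Apoe, the apolipoprotein that carries lipid out of the cell, was found in 36 cells, and its counts ran from 0 over a median of 10 to 429. Apoe and Lgals3 together made up 85.0% of all member UMIs. Trem2 was found in 23 cells, Cd63, a tetraspanin of late endosomes and lysosomes, in 22, Fabp5, a carrier of fatty acids, in 19, and Cd9, a tetraspanin of the cell surface, in 17. All 4 had a median of 0 UMIs per cell, and their highest cells held 40, 46, 41 and 29 UMIs. Itgax, which encodes CD11c, was found in 13 cells with up to 17 UMIs, and Spp1, which encodes osteopontin, in 7 with up to 16. Gpnmb, a glycoprotein of endosomes and lysosomes and a standard LAM marker, had 2 UMIs in all, in 2 cells.

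KO IP macrophages were compared with WT IP macrophages, the question being whether the program differed with endothelial Tert loss. Trem2, Apoe and Spp1 were higher in KO, Lgals3 was lower, and Cd9, Fabp5, Cd63 and Lipa differed by less than counting error. Itgax had 0 UMIs in KO and passed the minimum of 20 UMIs through WT alone, which fixed its direction. The higher values came mostly from 2 of the 10 KO cells, and without these cells 0 members were higher beyond counting error. Lgals3 remained lower without them, and Itgax had 0 UMIs in KO with and without them. The KO macrophages held 147979 UMIs and the WT macrophages 948459, with medians of 15717 and 17658 UMIs per cell. The 10 KO cells are numbered from the highest to the lowest C1q count, and they ranged from 1324 to 26804 UMIs.

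**Figure D1:**
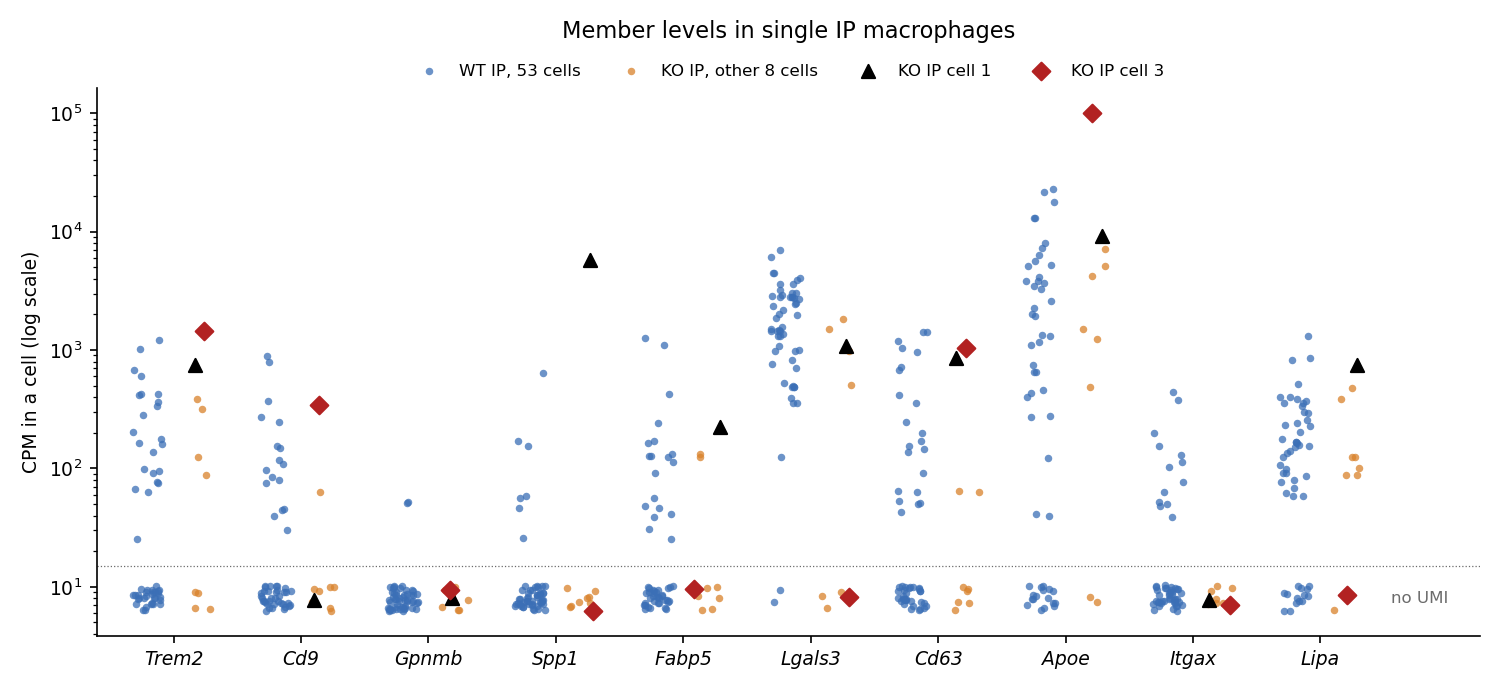
Level of each member in single IP macrophages, in CPM on a log scale, with cells without a UMI of the gene drawn in the band under the dotted line and spread at random within it. KO IP cell 1 stands alone for Spp1 and KO IP cell 3 for Apoe, and 0 of 10 KO cells had an Itgax UMI.

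Among the receptors and surface proteins, Trem2 had 56 UMIs in KO (378 CPM, 286 to 491) against 153 in WT (161 CPM, 137 to 189), and its log2 ratio was 1.24 (0.76 to 1.68). It was found in 6 of 10 and 23 of 53 cells. KO cells 3 and 1 held 21 and 20 of the 56 UMIs. The intervals of the shares overlapped (26.2% to 87.8% and 29.8% to 57.7%) while the sum was set by a few cells, and the ratio was -0.16 (-1.07 to 0.57) without these 2. Itgax had 0 UMIs in KO cells and 49 in WT cells (51.7 CPM, 38.2 to 68.3). With the 0 in KO set to its limit of 3 counts and the WT sum taken as exact, it was at least 2.55-fold lower, and the exact log2 interval, which carries the error of both sums, ended at -0.997. The UMIs of Itgax in WT came from 13 cells, the highest of them with 34.7%, and without the shared barcodes 25 UMIs remained and the upper end was -0.42. Cd9 had 6 UMIs in 2 KO cells (40.5 CPM) and 78 in 17 WT cells (82.2 CPM), a log2 ratio of -0.91 (-2.51 to 0.17). Of these 6, 5 lay in cell 3, and without cells 1 and 3 the ratio was -2.56 (-8.45 to -0.61). Cd63 had 40 UMIs in KO (270 CPM) and 194 in WT (205 CPM), a ratio of 0.42 (-0.13 to 0.90), and cells 1 and 3 held 23 and 15 of the 40. Without both cells 2 UMIs of Cd63 remained and the ratio was -3.13 (-6.50 to -1.57). Gpnmb had 0 UMIs in KO and 2 in WT and was not compared.

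Among the secreted proteins, Apoe had 2004 UMIs in KO (13543 CPM, 12956 to 14149) against 2662 in WT (2807 CPM, 2701 to 2915), and its log2 ratio was 2.27 (2.19 to 2.35). Cell 3 alone held 1455 of the 2004 UMIs, and cells 1, 2, 6 and 4 held 246, 110, 84 and 82. Without cell 3 the ratio was 0.55 (0.42 to 0.68), and without cells 1 and 3 it was 0.02 (-0.16 to 0.19). In the other 8 KO cells together Apoe stood at 2841 CPM, within counting error of WT. Spp1 had 154 UMIs in KO, all of them in cell 1, and 28 UMIs in 7 WT cells (29.5 CPM, 19.6 to 42.7). The sums gave a log2 ratio of 5.12 (4.55 to 5.78), while the other 9 KO cells had 0 UMIs. Lgals3 had 131 UMIs in KO (885 CPM, 740 to 1050) and 2036 in WT (2147 CPM, 2054 to 2242), a ratio of -1.27 (-1.54 to -1.02). It was found in 6 of 10 KO cells (60%, 26.2 to 87.8) and 51 of 53 WT cells (96.2%, 87.02 to 99.5). Its UMIs were spread over the KO cells, with 34, 29, 29, 20, 11 and 8 in cells 7, 1, 5, 6, 9 and 4 and 0 in cells 2, 3, 8 and 10. After thinning to 3000 UMIs per cell it was found in 5 of 9 KO and 45 of 49 WT cells. The ratio was -1.16 (-1.47 to -0.88) without cells 1 and 3 and -1.27 (-1.54 to -1.02) without shared barcodes.

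Among the proteins that handle lipid inside the cell, Lipa had 37 UMIs in KO (250 CPM, 176 to 345) and 226 in WT (238 CPM, 208 to 271), a log2 ratio of 0.09 (-0.47 to 0.58). It was found in 8 of 10 and 39 of 53 cells, and cell 1 held 20 of the 37 UMIs. Fabp5 had 11 UMIs in KO (74.3 CPM, 37.1 to 133) and 101 in WT (106 CPM, 86.7 to 129), a ratio of -0.46 (-1.57 to 0.38). With all cells, neither gene differed beyond counting error. Without cell 1, Lipa stood at -0.73 (-1.57 to -0.05) and Fabp5 at -1.24 (-3.02 to -0.10). Without cells 1 and 3 they stood at -0.54 (-1.385 to 0.13) and -1.05 (-2.84 to 0.09). The WT level of Fabp5 was set in good part by cells with shared barcodes, and without them 29 of its 101 UMIs remained and the ratio was 0.87 (-0.32 to 1.88).

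Of the 9 members with at least 20 UMIs over both libraries, 3 were at least 1.5-fold higher in KO, against 24.9% of the 5952 genes that passed the same minimum. At least 1.5-fold lower were 3 of the 9, against 21.4% of all genes. Itgax, among these 3, had 0 UMIs in KO and passed the minimum through WT alone, which fixed its direction. The median log2 ratio of the 9 was 0.09, and that of all genes 0.02. Summed, the members made up 1.65% of macrophage UMIs in KO IP against 0.583% in WT IP, with a log2 ratio between 1.43 and 1.57, and without Apoe the ratio was -0.04. Without cells 1 and 3, 0 of the 9 were 1.5-fold higher and 6 were lower, with a median of -1.16, while 26.1% and 24.2% of all genes passed the fold. Spp1 then also had 0 UMIs in KO and, like Itgax, was counted as lower through WT alone. Without the shared barcodes, 5 were higher and 3 lower, with a median of 0.61. The members' count and median therefore followed the choice of cells, and among the members Lgals3 was lower in KO beyond counting error under all 3 of these choices. The interval of Itgax also lay below 0 under these choices. With 0 UMIs in KO its direction was fixed by the minimum, so its place in the counts is not read as a result. Fewer macrophages with a program and less of it per macrophage cannot be told apart in a sum.

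**Figure D2:**
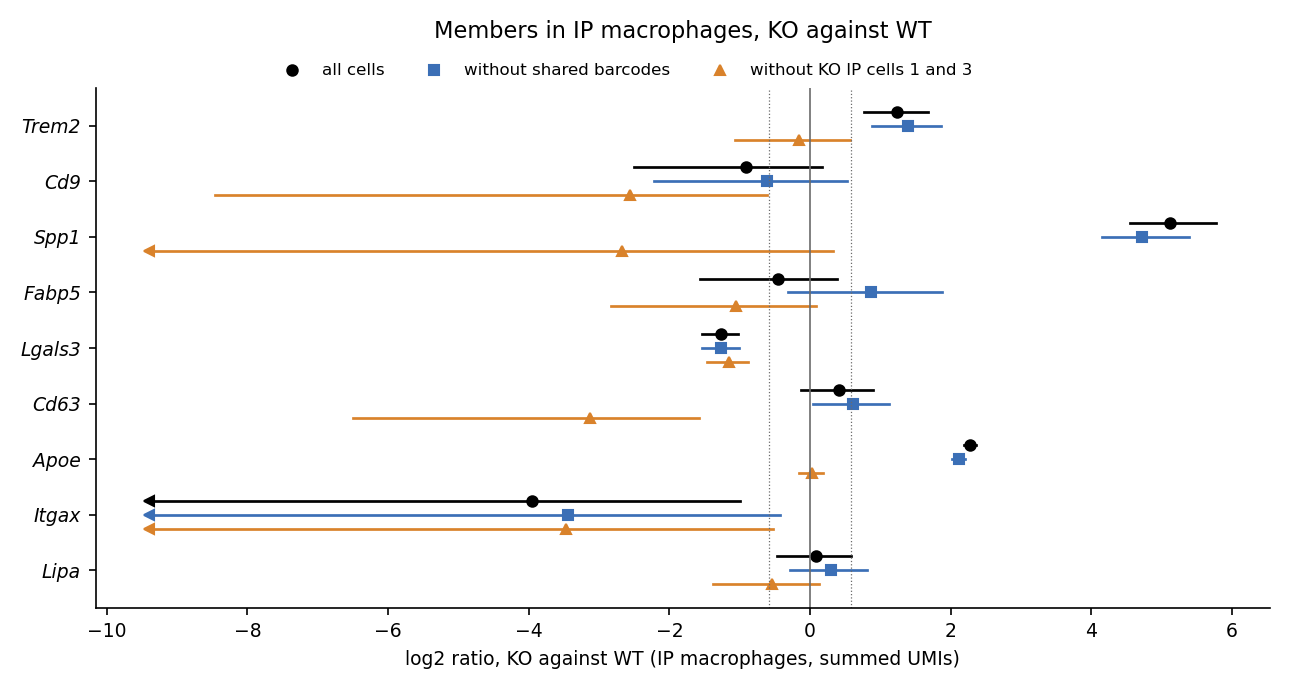
Log2 ratio of summed UMIs, KO against WT, for the 9 compared members in IP macrophages with exact 95% intervals for counting error, for all cells, without shared barcodes and without KO IP cells 1 and 3. Dotted lines mark 1.5-fold, arrows mark intervals without a lower end, and the Lgals3 values lie together between -1.27 and -1.16.

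KO cells 1 and 3 also differed from each other. In cell 3 the members made up 10.3% of 14520 UMIs, nearly all of it Apoe, with 21 UMIs of Trem2, 15 of Cd63 and 5 of Cd9, and 0 of Spp1, Lgals3, Fabp5 and Lipa. In cell 1 they made up 1.86% of 26804 UMIs and covered 7 members, with 246 UMIs of Apoe, 154 of Spp1, 29 of Lgals3, 23 of Cd63, 20 each of Trem2 and Lipa and 6 of Fabp5. Cell 1 also held 1304 UMIs of the 22 lysosome genes (4.86% of its UMIs), among them 443 of Ctsb, 223 of Ctsd and 164 of Lgmn, all of which encode lysosomal proteases. It had 0 UMIs of Cd74, the invariant chain of MHC class II, which stood at 15975 CPM over all KO macrophages. In the median cell the members made up 0.383% (KO IP) and 0.386% (WT IP) of UMIs.

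Co-detection was limited by depth. The median macrophage had UMIs of 4 members in both IP libraries, and at most 9 in WT and 7 in KO. At least 5 members were found in 24 of 53 WT cells (45.3%, 31.6 to 59.6) and in 3 of 10 KO cells (30%, 6.67 to 65.2). After thinning every cell to 3000 UMIs, which left out 4 WT cells and 1 KO cell, the median was 3 members in both, and 3 of 49 WT (6.12%, 1.28 to 16.9) and 1 of 9 KO cells (11.1%, 0.281 to 48.2) had at least 5. These counts are from 1 random draw of UMIs, and the mean over draws was 11.7% in WT and 12.2% in KO. Trem2 and Cd9, both used as surface markers of LAM, were found together in 0 of 49 thinned WT cells, where 0.980 were expected from the separate shares, and in 1 of 9 thinned KO cells, where 0.444 were expected. The shares expected over all draws were 5.85% and 8.92%. Before thinning they were found together in 9 of 53 WT cells, where 7.38 were expected, and in 2 of 10 KO cells, where 1.20 were expected. Of the pairs with at least 1 expected cell in thinned WT cells, 15 of 24 lay above expectation, with a median ratio of 1.09. Cd63 and Lipa were found together in 9 thinned WT cells against 4.41 expected and in 17 against 16.2 before thinning. Trem2 and Cd63 were found together in 4 against 2.20, and in 14 against 9.55 before thinning. Apoe and Itgax were found together in 0 cells against 3.55 expected, and in 4 against 8.83 before thinning. Lgals3 and Lipa matched expectation, at 22 against 22.0 cells.

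**Figure D3:**
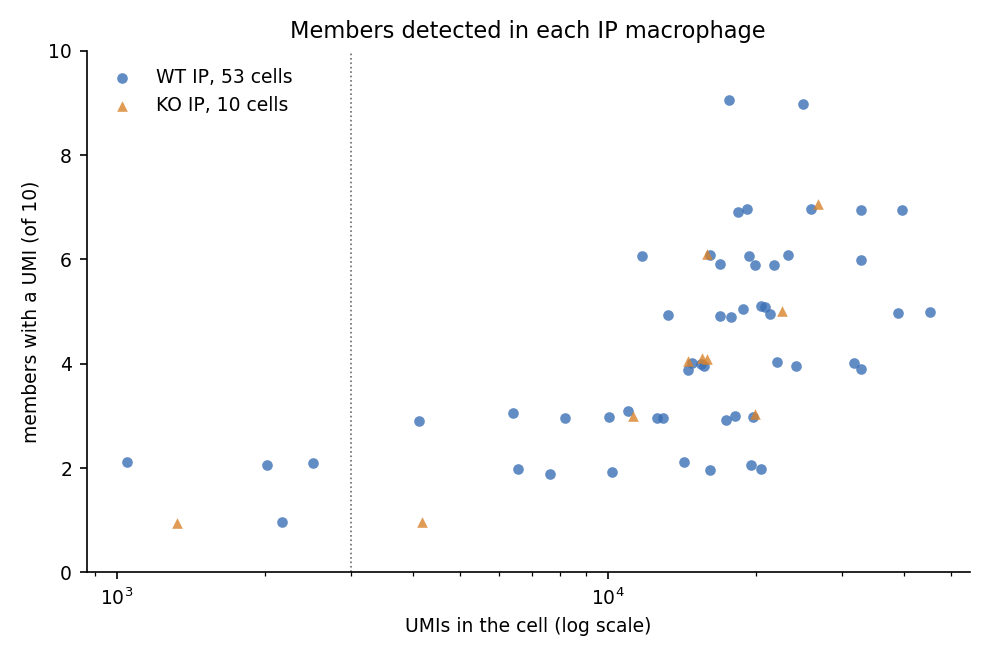
Number of the 10 members with a UMI in each IP macrophage against the UMIs of the cell on a log scale, with WT IP cells as circles and KO IP cells as triangles, and small vertical offsets for overlap. The dotted line marks 3000 UMIs, and cells under it had 1 or 2 members.

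WT IP macrophages with and without a Trem2 UMI were set side by side. Cells with Trem2 had more Cd63, Apoe, Spp1, Lgals3 and Lipa, with and without the shared barcodes. The 23 cells with Trem2 held 370 CPM of Cd63 (317 to 430) and the 30 without held 43.7 (27.0 to 66.7). Apoe stood at 4606 (4414 to 4805) and 1058 CPM (968 to 1154), Spp1 at 57.8 and 2.08, Cd9 at 128 and 37.4, and Lipa at 310 and 168. Among the cells with Trem2, 2 cells held 74.1% of the Spp1 UMIs, 71.7% of Cd9, 41.6% of Cd63 and 38.3% of Apoe. For Lipa and Lgals3 the share of 2 cells was 34.5% and 19.3%. Itgax stood at 25.7 CPM with Trem2 (13.3 to 44.8) and 76.9 without (54.2 to 106). Without the shared barcodes, 20 cells with Trem2 had 284 CPM of Cd63 (232 to 345) and 26 without had 63.2 (39.1 to 96.6), and Apoe stood at 4608 and 1532 CPM. The intervals then overlapped for Itgax, at 27.6 and 45.1 CPM, and for Cd9, at 85.5 and 45.1 CPM. Beyond the members, Folr2, a folate receptor of resident macrophages, stood at 214 and 16.6 CPM, but 2 cells held 92% of its UMIs in the cells with Trem2, and without the shared barcodes it stood at 88.3 and 24.1 CPM, with 27 of 32 UMIs in 1 cell. Ccr2, the chemokine receptor of recruited monocytes, stood at 516 and 846 CPM. Cd74 stood at 17019 and 18244 CPM. Cells with Trem2 were somewhat deeper, with a median of 18828 UMIs against 15787.5, and the gate gene C1qa differed too, at 1759 and 619 CPM. In KO IP the 6 cells with Trem2 had 359 CPM of Cd63, with 23 and 15 of the 40 UMIs in cells 1 and 3. The 4 without Trem2 had 0 UMIs, with an exact upper limit of 101 CPM. Their median depth was 7716 UMIs, against 15887.5 in the cells with Trem2.

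The genes most like the members were sought by their correlation with the summed members across thinned cells, taken within each IP library, among 342 eligible genes. By the smaller of the 2 values of r, the 10 highest were Ftl1, Fth1, Itm2b, Lgmn, Ms4a7, Selenop, Ifi207, Ubb, Ctsd and Ms4a6c. Ftl1 and Fth1, the chains of the iron store ferritin, had r of 0.61 and 0.60 over 49 WT cells and 0.76 and 0.87 over 9 KO cells. Lgmn, a lysosomal protease, had 0.52 in both, and Ctsd, cathepsin D, had 0.37 and 0.69. Cells of a library share its depth and free RNA, and with 9 KO cells these values are descriptions.

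The members were also read outside the gated macrophages. Trem2 and Itgax were found in few classes, while Cd9, Cd63, Apoe, Lipa and Fabp5 were found in several classes. Of all Trem2 UMIs in kept cells, 86.9% of 176 in WT IP lay in the macrophages, but only 15.6% of 360 did in KO IP. The others in KO IP lay mostly in mesothelial-like cells, named from Msln and Upk3b, markers of the lining of the peritoneal cavity. These 33 cells held 284 Trem2 UMIs (174 CPM, 154 to 195), with 24 of the 33 cells positive and no cell over 13.7% of the sum. The adaptor Tyrobp had 2 UMIs there, C1qa, C1qb and C1qc together had 1, and Lyz2 had 0. Csf1r, by contrast, had 82 UMIs (50.1 CPM, 39.9 to 62.2) in 23 of the 33 cells. WT IP had 5 mesothelial-like cells, 3 of them with shared barcodes, and 1 Trem2 UMI (7.71 CPM, 0.195 to 42.9). T cell-like, B cell-like, NK cell-like and neutrophil-like cells had 0 Trem2 UMIs in all 4 libraries, and ASC-like cells had 0 in SC and 4 (WT) and 6 (KO) in IP.

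**Figure D4:**
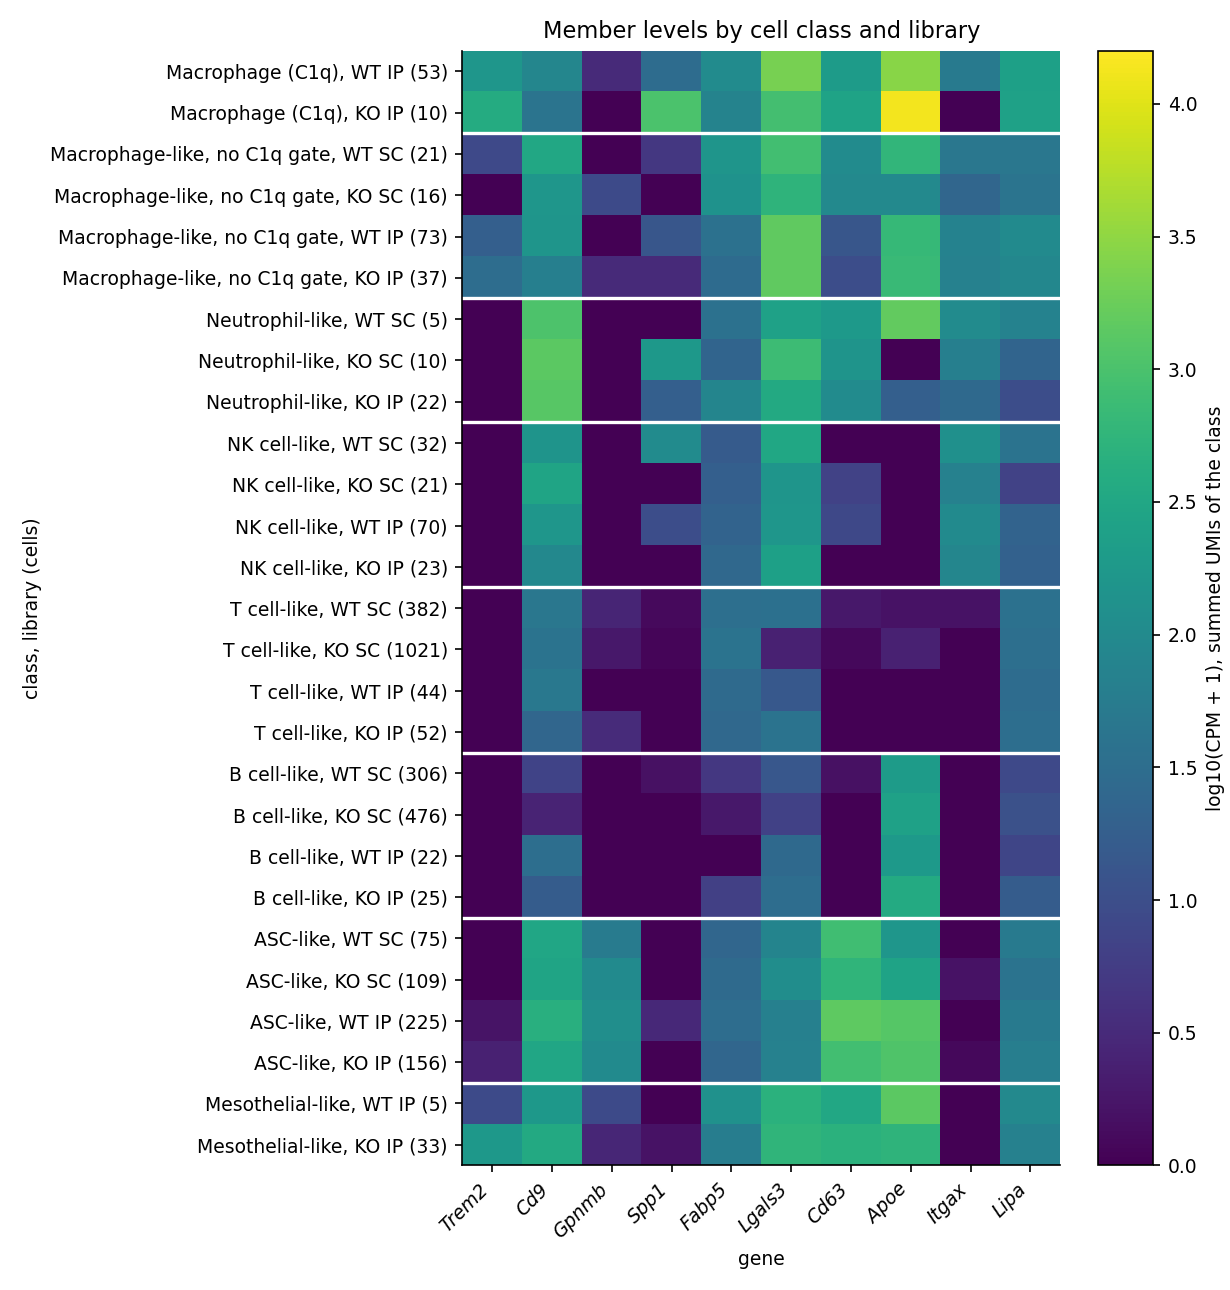
Level of each member, as log10(CPM + 1) of summed UMIs, by cell class and library, with the number of cells in brackets and only classes with at least 5 cells in a library. Trem2 is bright in C1q macrophages and in KO IP mesothelial-like cells, Itgax in NK cell-like and macrophage-like cells, and Gpnmb in ASC-like cells.

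Itgax was found in NK cell-like cells at 127 (WT) and 70.4 CPM (KO) in SC and at 102 (WT) and 83.3 CPM (KO) in IP. In the same order, macrophage-like cells outside the gate stood at 45.6, 23.8, 72.5 and 69.3 CPM, and the intervals of the 2 classes overlapped in IP. ASC-like and mesothelial-like cells had at most 1 Itgax UMI in any library. Gpnmb lay in ASC-like cells, at 55.4, 103, 120 and 103 CPM in the same order, where 69.3% of WT IP and 81.4% of KO IP cells had a UMI. After thinning to 3000 UMIs per cell, 24% of these WT IP and 24.5% of these KO IP cells had one. Cd63 was also high in ASC-like cells, at 801, 556, 1425 and 860 CPM, against 0 UMIs in T cell-like cells of both IP libraries. Cd9 was highest in neutrophil-like cells, at 1069 to 1411 CPM over the 4 libraries. These were few cells, 5 (WT) and 10 (KO) in SC and 3 (WT) and 22 (KO) in IP. Cd9 stood at 310, 282, 447 and 310 CPM in ASC-like and 146, 287, 160 and 89.7 CPM in NK cell-like cells. Apoe stood at 1246 (WT) and 1111 CPM (KO) in ASC-like cells of IP and at 180 and 366 CPM in B cell-like cells, while NK cell-like cells had 0 UMIs in all 4 libraries. T cell-like cells of IP had 0 UMIs of Apoe and of Cd63, with an exact upper limit of 10.03 CPM (WT) and 8.44 CPM (KO). The part of free RNA in the members' levels was not tested.

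In macrophage-like cells that did not pass the gate, 73 in WT IP and 37 in KO IP, the pattern of the gated cells was not seen. With these cells added to the gated ones, Itgax had a log2 ratio of -0.23 and Lgals3 of -0.40. In the cells outside the gate alone, Lgals3 was at 1475 CPM in WT (1399 to 1554) and 1521 in KO (1411 to 1638), a log2 ratio of 0.05 (-0.09 to 0.18). Apoe had a ratio of 0.09 (-0.11 to 0.28) and Itgax of -0.05 (-0.71 to 0.56). Cd9 was the one member lower in KO beyond counting error, at 65.01 against 154 CPM and a ratio of -1.23 (-1.86 to -0.67). In ASC-like cells of IP, Cd63 (-0.73, -0.78 to -0.67), Cd9 (-0.53, -0.63 to -0.43), Fabp5 (-0.38, -0.75 to -0.02), Gpnmb (-0.23) and Apoe (-0.16) were lower in KO, with a median over 12202 genes of 0.06.

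In SC the program could hardly be read. The 3 gated KO SC cells held 31958 UMIs, of which 30847 belonged to the 1 cell without a shared barcode. That cell had 249 UMIs of Lgals3, 30 of Cd63, 29 each of Cd9 and Fabp5, 21 of Lipa, 16 of Trem2, 6 of Spp1, 5 of Itgax, 1 of Gpnmb and 0 of Apoe. It was the only KO SC cell with a Trem2 UMI. In WT SC 2 Trem2 UMIs were found, in 1 macrophage-like cell outside the gate.

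Other genes of the pathway and of macrophage states were then compared in IP macrophages, as lists. The dissociation and immediate early genes and the macrophage identity genes held more higher than lower members with and without KO cells 1 and 3. The lysosome genes did so with these cells but not without them. Over all genes, 24.9% were higher and 21.4% lower past 1.5-fold, and 26.1% and 24.2% without these cells. No list was tested. Of the TREM2 receptor partners and signalling genes, 1 of 9 was 1.5-fold higher and 1 lower, with a median of -0.17. The adaptor Tyrobp differed by less than counting error, at 1561 and 1700 CPM and a log2 ratio of -0.12 (-0.33 to 0.08). Syk, the kinase that TYROBP recruits, was lower (-0.99, -1.52 to -0.54), and Inpp5d, the phosphatase SHIP1, was higher (0.94, 0.41 to 1.41).

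Of the lysosome genes, 10 of 20 were higher and 2 lower, with a median of 0.63. Ctsd (2.03), Ctsb (1.38) and Tpp1 (1.31) were named by size, and cell 1 held from 67.6% to 74.8% of the KO UMIs of each. Without cells 1 and 3, 3 were higher and 3 lower, with a median of 0.03, and Ctsb stood at -0.43 (-0.71 to -0.17). Of the genes of lipid uptake, storage and efflux, 5 of 18 were higher and 8 lower, with a median of -0.19. The 4 largest differences were all lower in KO. Lpl, lipoprotein lipase, had 7 UMIs in KO and 776 in WT, in 6 and 30 cells (-4.01, -5.43 to -3.06). Cd36, the fatty acid translocase, had 22 and 830 UMIs (-2.53, -3.24 to -1.95), and 21 of the 22 lay in cell 1. Pparg, a lipid-sensing nuclear receptor, had 6 and 204 UMIs (-2.30, -3.87 to -1.26). Fabp4, a fatty acid carrier, had 2 and 273 UMIs (-4.09, -7.47 to -2.55), with 68.9% of the WT UMIs in 1 cell. Without shared barcodes Lpl stood at -3.54 (-4.96 to -2.58) and Cd36 at -2.32 (-3.04 to -1.74). Lpl is also among the leading genes of an ASC-like cluster, and ASC markers stood at 50.6 CPM in WT and 74.3 in KO macrophages. Of the 5 adipocyte markers, 1 UMI was found in WT and 0 in KO.

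**Figure D5:**
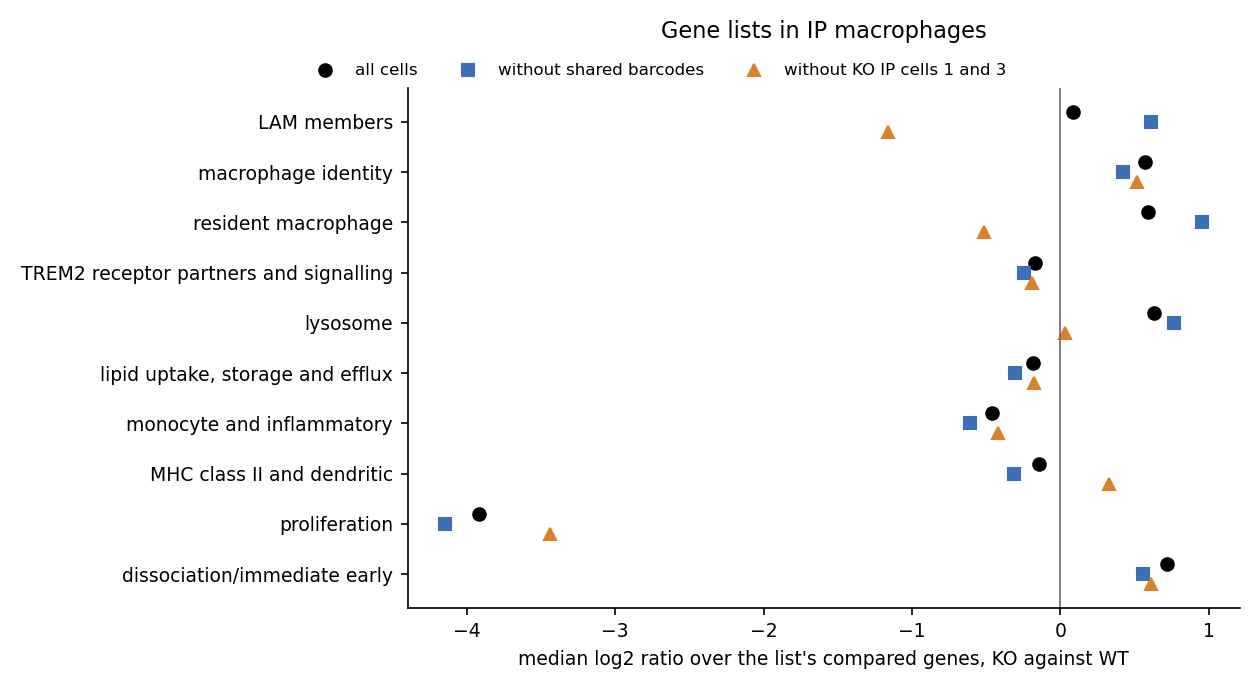
Median log2 ratio, KO against WT, over the compared genes of each list in IP macrophages, for all cells, without shared barcodes and without KO IP cells 1 and 3. The members' median ran from -1.16 to 0.61 over these choices, the lysosome median from 0.03 to 0.77, and the proliferation median, with 5 of 6 genes at 0 UMIs in KO, lay under -3.

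Of the macrophage identity genes, 4 of 10 were higher and 0 lower (median 0.57), with Mertk (2.24), Ms4a7 (1.57), Adgre1 (1.07) and Ctss (1.02). Without cells 1 and 3, 4 were higher and 1 lower (median 0.51), Mertk was at 2.33, Adgre1 at 1.12, Ctss at 0.51 and Ms4a7 at -0.12 (-1.23 to 0.71). Of the resident macrophage genes, 5 of 9 were higher and 4 lower (median 0.59). Gas6 (2.54), a ligand of MERTK, had 92.5% of its KO UMIs in cell 1, and Mgl2, a lectin, was at 1.71. Pf4, a chemokine, was at -1.60, and Lyve1 had 0 UMIs in KO and 62 in WT, all in 1 cell with a shared barcode. Without cells 1 and 3 the median of this list was -0.52. Of the monocyte and inflammatory genes, 3 of 13 were higher and 4 lower (median -0.46), with Thbs1 at 1.94 and Ccl4, Nlrp3 and Cxcl2 at -1.81, -1.19 and -1.12. Of the MHC class II and dendritic genes, 1 of 7 was higher and 0 lower (median -0.14). Cd209a was at 1.54 with all 12 KO UMIs in 1 cell, and H2-Eb1, H2-Ab1 and Cd74 were at -0.26, -0.16 and -0.14.

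The proliferation list had 7 UMIs in KO and 431 in WT. Of its 6 compared genes, 5 had 0 UMIs in KO and passed the minimum through WT alone, which fixed their direction, so their count is not read as a result. Mki67, Ube2c, Birc5 and Top2a had 59, 57, 52 and 44 UMIs in WT, in 11, 5, 7 and 7 cells, and 1 WT cell held 32.2%, 52.6%, 44.2% and 59.1% of them. Their exact log2 intervals ended at -1.27, -1.22, -1.09 and -0.84. With genes at 0 set to 3 counts the list's median was -1.48. Of the dissociation and immediate early genes, which respond to tissue dissociation, 8 of 14 were higher and 0 lower in KO (median 0.72). The same counts held without cells 1 and 3 (median 0.61). Fos (1.65), Hspa1b (1.25), Ier3 (1.24) and Ier2 (1.03) were named by size. The part of handling in the members' levels was not tested.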

How the data were processed

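Cells of SC and IP AT were profiled with 10x Genomics Chromium 3′ v3 libraries. The authors deposited unnormalised UMI counts for each gene in each barcode, made with Cell Ranger (software 7.0.0 per the file headers). The submitters' processing notes name STAR 2.6 and mm10. Whether intronic reads were counted is not given in the sources used here.

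Cells needed 200 genes and no more than 25% of UMIs from mitochondrial genes, and doublets called with Scrublet in scanpy 1.11.5 (23 barcodes, 0.556%) were removed. Classes came from joint Leiden clustering (leidenalg 0.10.2, resolution 1, 2000 variable genes, 30 components), named from listed markers. UMIs were summed per class and library and given as CPM with exact Poisson intervals. Shares carry exact Clopper-Pearson intervals, and log2 ratios, after adding 0.5 UMI, exact conditional binomial ones (95%, counting error only). Genes needed 20 UMIs, and 1.5-fold was the call, since 1 library per group allows no test. Depth was 518 to 1955 kept cells per library. The ratio step was tested on simulated data. Promoter windows came from a RefSeq table of GRCm38.p6. Scripts ran in Python 3.11.15 with scipy 1.17.1, numpy 2.4.6, matplotlib 3.10.9 and pandas 2.3.3.

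The members and lists were chosen with earlier results of these data known. The text names all members and, from each other list, up to 4 genes with the largest absolute log2 ratio whose interval left out 0. A gene named by this rule is not reported here. The text also names Tyrobp and genes beside the Trem2 comparison, chosen after their values were seen. Samples were grouped by their labels, and the alternatives tried were other gates, filters, scalings, depths and minima.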

Additional observations from a re-analysis of the deposited data

Results flagged for a closer look

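These results were singled out because the log2 ratio, KO against WT, lay beyond counting error in opposite directions in SC and IP. With 1 library per group the differences between depots were not tested. Gpnmb in ASC-like cells was at 0.89 in SC and -0.23 in IP, and Apoe in the same cells at 0.79 and -0.16, where 1 cell held 47.0% of the WT SC UMIs of Apoe. Cd9 in NK cell-like cells was at 0.97 in SC and -0.79 in IP. Lgals3 in NK cell-like cells was at -1.03 in SC, where 1 cell held 80.8% of the KO UMIs, and at 0.62 in IP. Lgals3 in T cell-like cells was at -4.56 in SC, where 1 cell held 50.8% of the WT UMIs, and at 1.42 in IP (0.02 to 3.31), where the median of all genes was 0.19.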

How the results depend on the processing

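Under the alternatives, 99 values of the main results kept their direction and size within counting error or 1.5 times a count, and 19 moved. No paired analysis was possible because each group had 1 library and no test was run. Leaving out the cell with the most UMIs in each library gave a median of -0.59, 5 members lower and a sum of 0.36, and reversed Spp1 to -1.71. Leaving out cells with other classes' markers gave a median of 0.76, 5 members higher, a sum of 0.50 and 0% of KO cells with both Trem2 and Cd9. The shares of all genes past the fold in these settings are not given here. The whole macrophage-like cluster gave a sum of 0.50 and a share ratio of -1.05. Weighting cells equally gave a sum of 1.35, and thinning to 3000 UMIs gave 1.65. Without shared barcodes, chosen after seeing the data like the removal of cells 1 and 3, the median was 0.61 and 5 members were higher. Of all genes, 23.9% were higher past the fold without shared barcodes. At 1500 UMIs, 0% of KO cells had both Trem2 and Cd9 and 0% had 5 members. Means over draws of 3000 UMIs were 11.7% (WT) and 12.2% (KO) for 5 members. In WT, 5000 UMIs gave 10.4% and 18.8%, and unthinned cells 17.0% and 45.3%. Leaving out cells 1 and 3 gave Trem2 -0.16 and Apoe 0.02. Over the other settings, Trem2 ran from 0.38 to 1.80, Apoe from 0.41 to 2.50 and Lgals3 from -1.54 to -0.40. Itgax ran from -3.95, where 0.5 or 1 UMI was added to its 0 in KO, to -0.23. That -0.23 came from the whole macrophage-like cluster, where the KO IP cells outside the gate held 32 Itgax UMIs. Cd9, Fabp5, Cd63, Lipa and Spp1 took both signs. The causes were not tested. The 10 KO macrophages set the depth: a gene with 0 UMIs there could stand at up to 24.9 CPM by its exact interval.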

Other observations

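In WT IP, 13 of the 53 macrophages had at least 3 UMIs of the proliferation list. They held 24 of the 28 Spp1 UMIs (73.9 CPM, 47.4 to 110, against 6.41, 1.75 to 16.4, in the other 40 cells), in 3 and 4 cells. Itgax stood at 77.0 and 38.5 CPM and Cd9 at 46.2 and 101 CPM in the same cells, and Trem2 at 123 and 181 CPM. Without the shared barcodes, 9 and 37 cells remained, with Spp1 at 132 (84.4 to 196) and 5.85 CPM (1.21 to 17.1), 83.3% of the former in 2 cells, Itgax at 32.9 and 37.1 CPM and Cd9 at 65.8 and 66.3 CPM. Median depth over all 53 cells was 24132 and 16538 UMIs. In KO IP, 2 of 10 macrophages had at least 3 such UMIs, 6 in all, and 0 UMIs of Spp1.

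Haemoglobin made up 35.8% of the UMIs of 1 WT IP macrophage and a median of 0.0160% over the 53. Without that cell the members' median was 0.07, with 3 higher and 3 lower, while 23.9% and 22.1% of all genes passed the fold.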
